A study of Mus musculus with 12 samples.

Results

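The axon guidance genes of the mouse lens were followed across 4 Epha2 genotypes. The set was defined by a rule on gene symbols, chosen with earlier results of these data known. It takes in semaphorins, plexins, neuropilins, Slits, Robos, netrins, UNC5 and DCC receptors, neogenin and RGMs. It also takes in the cytosolic CRMP (Crmp1 and Dpysl), Ablim and Srgap families. In the GENCODE vM21 annotation 61 symbols answer to this rule, and 28 of them were among the 8676 genes of the deposited count table. The table holds only genes above 3 CPM (the count scaled to library size) in at least 6 of the 12 libraries, and the symbols not listed there, among them every neuropilin and netrin, Dcc and 3 of the 4 Robos, were not analysed here.

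RNA-seq was performed on whole lenses at postnatal day 7, with 3 libraries per genotype and 6 pooled lenses per library. Wild type mice were C57BL/6J, and all mutant lines were kept on that background. Epha2-Q722 mice were homozygous for a CRISPR/Cas9 knock-in that places glutamine in the tyrosine kinase domain of the EphA2 receptor. Epha2-indel722 mice were homozygous for an in-frame insertion-deletion in the same domain that arose in a founder of the same editing experiment. Epha2-null mice carried a germline knockout allele obtained from a repository. All alleles were germline, so each cell of the animal carried them. A library is a pool of lenses, and the labels do not say which litters the pools came from, so p-values measure the spread between pools.

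Guidance cues were named for their action on growing axons. Semaphorins signal through plexins, often with neuropilins as co-receptors, Slits through Robos, and netrins and RGMs through DCC, neogenin and UNC5 receptors, and all of them act on the cytoskeleton and on adhesion. The lens holds no neurons, only an anterior epithelium and elongated fiber cells, and in the newborn it is still wrapped in a regressing capillary network. EphA2, itself a receptor of the Eph family of guidance receptors, is known for its part in the alignment and packing of lens fiber cells.

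Libraries held 14543069 to 20340688 counts, and the members took 26 to 4454 counts each in a library. The targeted gene, Epha2 (chromosome 4, bases 141301240 to 141329384 of mm10), gave 56.9 ± 5.87 normalized CPM in wild type (mean ± SD, n = 3), where Epha2-Q722 had 48.9 ± 4.90, Epha2-null 34.6 ± 3.44 and Epha2-indel722 20.7 ± 0.847. It was lower in Epha2-indel722 (log2 fold change -1.46, adjusted p = 1.4e-10, edgeR's quasi-likelihood test) and in Epha2-null (-0.71, adjusted p = 6.7e-06) than in wild type. No member lies on chromosome 4. All 12 lens fiber markers and all 8 lens epithelium markers were listed. Of the markers of macrophages, red blood cells, pigmented and corneal epithelium none was listed, of 16 endothelial markers 2 (Tek and Egfl7), of 10 pericyte and smooth muscle markers 4, of 14 retinal markers 2, and of 8 mesenchymal markers 2 (Col1a2 and Pdgfra). In whole lenses, fewer cells of a type and less RNA per cell cannot be told apart.

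The members spanned a wide range of levels. Normalized CPM (CPM on the library total scaled by its TMM factor) had a median of 18.1 over the 28 members and of 14.1 over all genes. Per kilobase of transcript, which makes genes comparable, the highest wild type levels were those of Sema5a (18.7 ± 2.53 CPM per kb, SD, n = 3), a transmembrane semaphorin, and Plxnb2 (18.4 ± 1.74), a plexin receptor. Both were followed by Ablim1 (15.6 ± 0.192), an actin-binding protein, and the Slit ligand Slit3 (13.3 ± 1.02). Sema5a and Plxnb2 did not differ beyond their spread. Sema3a, a secreted semaphorin, stood next at 9.15 ± 0.801 CPM per kb. Slit2 ranked 18 of 28 at 2.13 ± 0.398 CPM per kb. Unc5b ranked 26 at 1.09 ± 0.14 and Robo1 24 at 1.15 ± 0.14, and these did not differ beyond their spread. The order depends on the transcript taken for the length, here the one with the longest coding sequence. With the union of all annotated exons the order was Plxnb2 (15.5 CPM per kb), Slit3 (11.5), Sema5a (10.8) and Ablim1 (9.32) at the top, and Sema3a ranked 10 (3.91), Unc5b 21, Slit2 25 and Robo1 28.

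**Figure D1:**
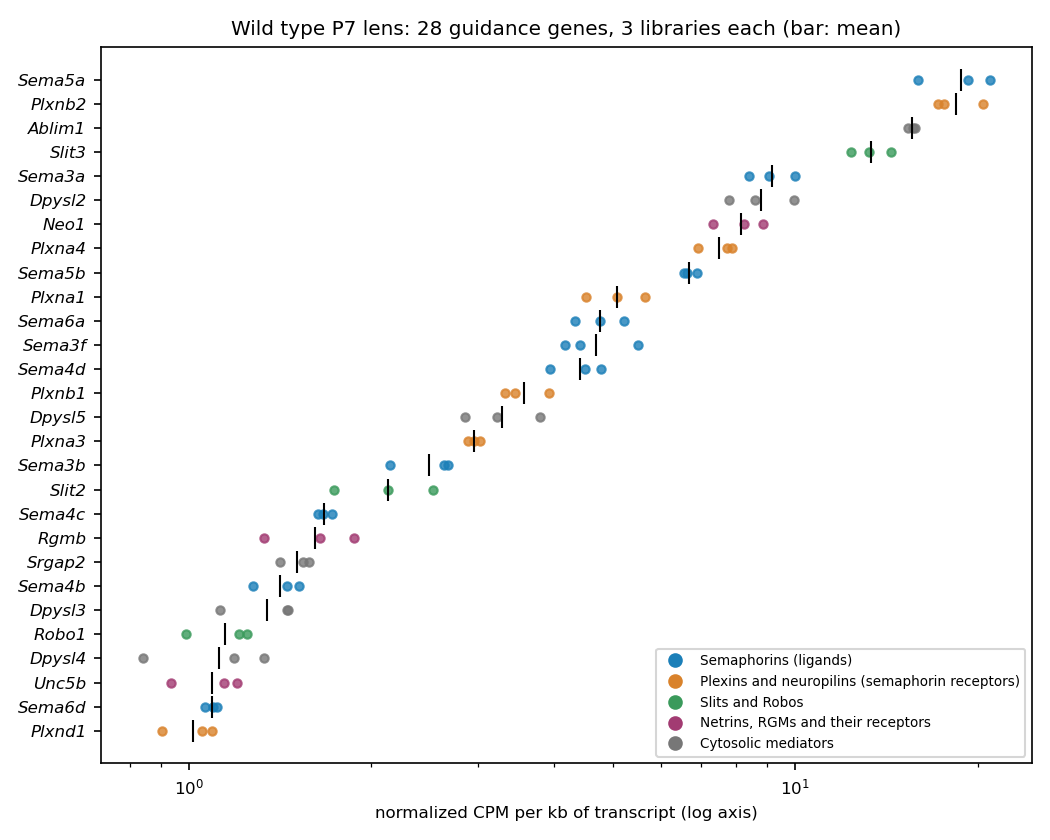
Wild type level of each of the 28 guidance genes as normalized CPM per kb of transcript (log axis), with 1 point per library, a bar at the mean of 3 libraries, and colours for the families. Levels run from 18.7 for Sema5a to 1.02 for Plxnd1, and Unc5b and Robo1 lie near the bottom.

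The members that passed a 2-fold change against wild type with TMM factors were Slit2 and Unc5b. Slit2 (chromosome 5, bases 47983138 to 48307733 of mm10, plus strand) encodes a secreted ligand of Robo receptors that repels axons at the midline. Unc5b (chromosome 10, bases 60762593 to 60831581, minus strand) encodes a netrin receptor known for repulsion in axons and in the tip cells of growing blood vessels. The stretches upstream of their start sites are shown because these were the members with the largest changes in RNA. Sequences are from RefSeq with GRCm38.p6, the build of mm10, and cover chr5:47982905-47983137 for Slit2 and chr10:60831582-60831831 for Unc5b, read 5′ to 3′ on each gene's strand. For Slit2 the 17 bases next to the RefSeq start were left out because GENCODE places them inside the gene. Capitals mark TATAAA and GGGCGG, the latter on either strand (CCGCCC when read on the opposite one).
Slit2: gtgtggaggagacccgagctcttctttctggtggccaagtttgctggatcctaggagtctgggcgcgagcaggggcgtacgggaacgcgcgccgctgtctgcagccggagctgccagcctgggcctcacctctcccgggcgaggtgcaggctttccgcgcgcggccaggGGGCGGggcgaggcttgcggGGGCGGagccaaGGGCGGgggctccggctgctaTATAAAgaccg
Unc5b: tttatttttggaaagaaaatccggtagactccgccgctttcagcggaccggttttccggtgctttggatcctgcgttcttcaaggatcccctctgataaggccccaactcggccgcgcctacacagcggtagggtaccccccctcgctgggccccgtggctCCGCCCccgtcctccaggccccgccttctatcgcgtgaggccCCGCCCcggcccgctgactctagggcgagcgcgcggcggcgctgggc
The Slit2 stretch held 3 GGGCGG elements, the GC box bound by Sp factors, and 1 TATAAA at positions -28 to -23 from the RefSeq start. The Unc5b stretch held 2 GC boxes on the opposite strand and no TATAAA. GC content was 70.4% for Slit2 and 66.8% for Unc5b, against a median of 52.4% over the 250 bases before 32851 RefSeq starts. Of those starts 12.4% held TATAAA and 32.7% GGGCGG on either strand. TGACTCA, the AP-1 element (4.46% of starts), and CCAAT (33.8%) were also searched and found in neither stretch. Of the 28 members 20 had an entry, and among these TATAAA was found for Rgmb and Slit2 and GGGCGG for 15. These matches describe letters in a window.

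Counts were compared between genotypes with edgeR's quasi-likelihood test, and a gene passed at an adjusted p of at most 0.05 over all 8676 genes. Of the 28 members, 5 (17.9%) passed in Epha2-Q722 against wild type, where 6.37% of all genes passed. The 5 were 3 higher and 2 lower, beside 2.75% and 3.62% of all genes. In Epha2-indel722, 10 members (35.7%) passed against 13.1% of all genes, 4 higher (6.73% of all genes) and 6 lower (6.37%). In Epha2-null, 10 members passed against 11.2% of all genes, 3 higher (4.98%) and 7 lower (6.22%). At a 2-fold change as well, 1 member passed in each genotype, beside 0.807%, 1.01% and 0.841% of all genes in the same order. At least 1 genotype was passed by 17 of 28 members (60.7%) and by 22.4% of all genes. Groups that did not overlap with wild type were found for 8, 16 and 12 members, and for 22.4%, 32% and 28.6% of all genes. The median log2 fold change of the members was 0.04, -0.03 and -0.10, against 0.005, -0.002 and 0.01 over all genes. In Epha2-null 21 of 28 members (75%) lay below 0, beside 47.6% of all genes, but with library totals in place of TMM factors 9 did (32.1%), beside 8.45% of all genes. A test of the 4 genotypes together was passed by 15 of 28 members (53.6%) and by 25.8% of all genes. All 3 comparisons share the wild type libraries, and the members were chosen with earlier results of these data known.

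The direction of small changes depended on the scaling. Wild type libraries had TMM factors of 0.886 to 0.913, and Epha2-null libraries of 1.06 to 1.12. The summed level of the 12 fiber markers ran from 454500 to 495300 normalized CPM in wild type and from 350600 to 364100 in Epha2-null. When scaled to library totals, the median over all genes moved from near 0 to 0.28 on the log2 scale in Epha2-null, 0.17 in Epha2-indel722 and 0.15 in Epha2-Q722. Of all genes passing, 43.2% were higher in Epha2-Q722 with TMM and 89.7% with library totals, and the same shares were 51.4% and 91.2% in Epha2-indel722 and 44.4% and 96.8% in Epha2-null. For Epha2-null against Epha2-Q722 they were 46.8% and 80.3%, and for Epha2-indel722 against Epha2-null 55.9% and 22%. The members that passed then numbered 7 higher and 1 lower in Epha2-Q722 (28.6% of 28, beside 14.9% of all genes), 10 and 1 in Epha2-indel722 (39.3%, beside 27.5%), and 8 and 3 in Epha2-null (39.3%, beside 55.9%). In Epha2-null the members' share was thus above that of all genes with TMM and below it with library totals. Against wild type 10 calls of members were lost with library totals, 15 were gained and the sign turned in 23 values, of which 1, Neo1 in Epha2-null, passed with library totals and 0 passed with TMM. The calls of Unc5b in Epha2-indel722 and Epha2-null and of Slit2 in Epha2-Q722 held under both scalings. The part of the fiber RNA in these shifts was not tested.

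**Figure D2:**
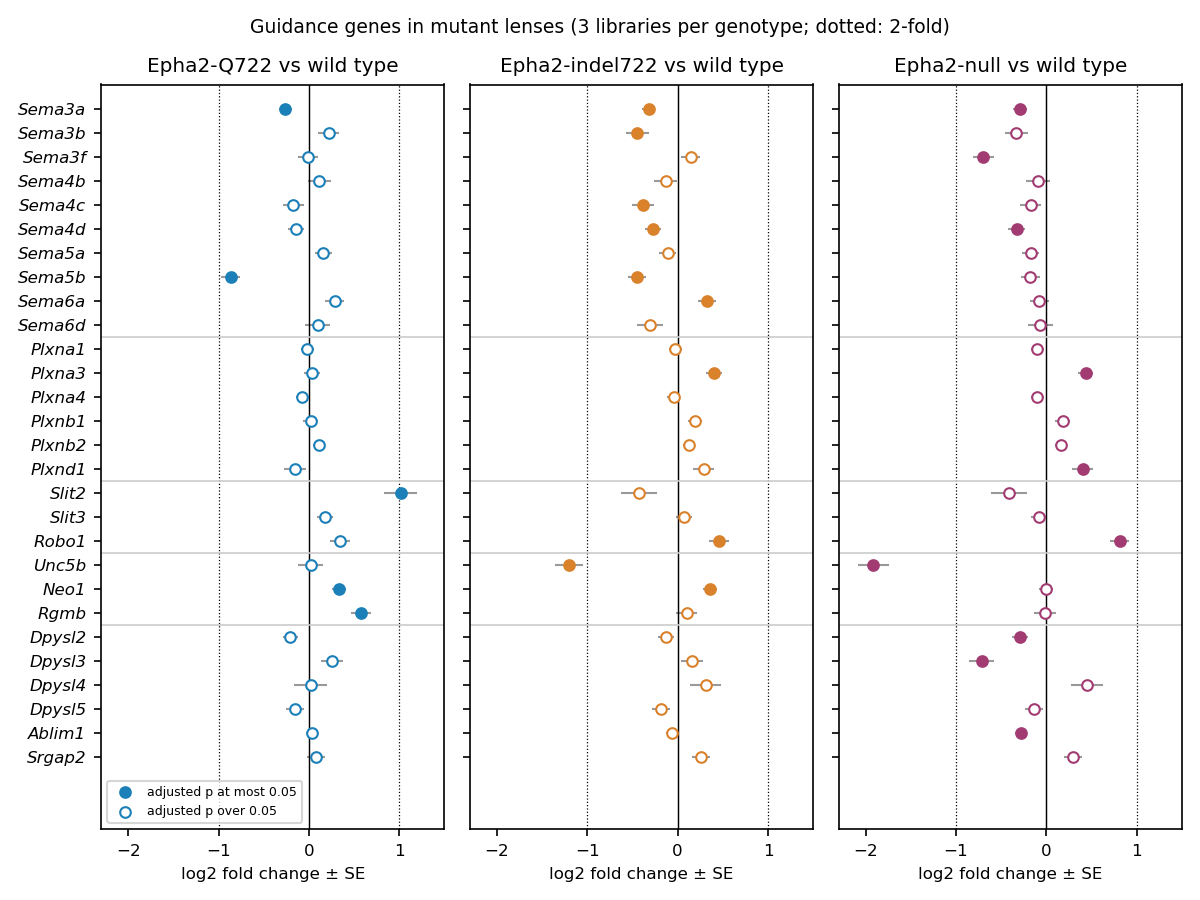
Log2 fold change ± SE of the 28 members in each mutant genotype against wild type (3 libraries per genotype, edgeR with TMM factors), ordered by family, with filled points for an adjusted p of at most 0.05 and dotted lines at a 2-fold change. Beyond 2-fold lie Slit2 in Epha2-Q722, at 1.02, and Unc5b in Epha2-indel722 and Epha2-null, at -1.21 and -1.91.

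Among the Slit and Robo genes, Slit2 rose in Epha2-Q722 lenses alone of the 3 genotypes tested. Its normalized CPM were 16.6, 19.7 and 13.5 in wild type and 40.4, 34.3 and 26.4 in Epha2-Q722. Values of 10.9, 13.5 and 12.9 were found in Epha2-indel722, and of 10.3, 12.8 and 14.2 in Epha2-null. Every Epha2-Q722 library stood above every library of the other genotypes. All Epha2-indel722 libraries lay below or level with the lowest wild type library, and the Epha2-null libraries overlapped with wild type. The change in Epha2-Q722 was 2.02-fold (log2 fold change 1.02, SE 0.18, adjusted p = 0.0078, edgeR's quasi-likelihood test). It passed the adjusted p without any 1 library (log2 fold change 0.87 to 1.17, adjusted p 0.00022 to 0.036), but fell under 2-fold without wild type replicate 3 (0.88), without Epha2-Q722 replicate 1 (0.87) and without Epha2-Q722 replicate 2 (0.9996). In Epha2-indel722 the log2 fold change of Slit2 was -0.42 (95% interval -0.87 to 0.02, adjusted p = 0.22) and in Epha2-null -0.42 (-0.87 to 0.03, adjusted p = 0.24). With edgeR's exact test on the pair of groups alone these passed, at adjusted p = 0.0059 and 0.025, and in Epha2-indel722 Slit2 also passed in the quasi-likelihood fit of that pair alone (adjusted p = 0.026). Tested directly, Slit2 was 2.71-fold lower in Epha2-indel722 (adjusted p = 0.00061) and 2.70-fold lower in Epha2-null (adjusted p = 0.00044) than in Epha2-Q722.

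Both listed mesenchymal markers were summed beside Slit2. The summed normalized CPM of Col1a2 and Pdgfra was 78.3 to 87.9 in Epha2-Q722, against 56.4 to 62.7 in wild type, 60.8 to 62.3 in Epha2-null and 56.1 to 63.7 in Epha2-indel722. Pdgfra, which lens epithelium also expresses, accounted for most of it and rose by a log2 fold change of 0.50 (adjusted p = 3.2e-05), while Col1a2 gave 0.43 and did not pass (adjusted p = 0.059). The 8 epithelial markers summed to 481 to 564 in Epha2-Q722 and 444 to 494 in wild type. Of these, Cdh1, E-cadherin, rose by 0.61 on the log2 scale in Epha2-Q722 (adjusted p = 8.4e-06, edgeR's quasi-likelihood test). It also rose in Epha2-indel722 (0.66, adjusted p = 2.3e-06) and in Epha2-null (0.31, adjusted p = 0.0095). Gja1 instead fell in Epha2-indel722 (-0.38, adjusted p = 0.013) and Epha2-null (-0.62, adjusted p = 0.00031), and Npnt fell in Epha2-null (-0.29, adjusted p = 0.0059). Foxe3, Pax6, Sulf1, Slc38a3 and Pdpn passed in no comparison with wild type. The part of either cell type in the Slit2 values was not tested.

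Robo1, a receptor for Slit2 on axons, was higher in Epha2-indel722 and Epha2-null. Wild type libraries held 7.98, 8.24 and 6.53 normalized CPM of Robo1, and Epha2-Q722 libraries 9.12, 10.4 and 9.29. Epha2-indel722 libraries held 10.996, 9.81 and 10.4, and Epha2-null libraries 12.2, 13.1 and 14.5. All mutant libraries stood above wild type, and the Epha2-null libraries stood above all others. Robo1 rose by a log2 fold change of 0.81 in Epha2-null (SE 0.11, adjusted p = 1.4e-05) and 0.46 in Epha2-indel722 (SE 0.11, adjusted p = 0.0061), the latter not passing without wild type replicate 3. With library totals Robo1 gave 1.08 in Epha2-null (adjusted p = 1.9e-06, edgeR's quasi-likelihood test), which is beyond 2-fold. Its value in Epha2-Q722 was 0.35 (adjusted p = 0.068), which passed with library totals (0.50, adjusted p = 0.012). Epha2-null was also above Epha2-Q722 (0.46, adjusted p = 0.0024). Slit3, the more abundant Slit, passed in no comparison with wild type, with means of 69.6 ± 5.32 normalized CPM in wild type, 65.7 ± 6.53 in Epha2-null, 73.3 ± 1.404 in Epha2-indel722 and 78.5 ± 10.9 in Epha2-Q722.

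Among netrin and RGM receptors, Unc5b was lower in Epha2-indel722 and Epha2-null and near the wild type level in Epha2-Q722. Normalized CPM of Unc5b were 5.50, 7.06 and 6.70 in wild type and 5.75, 6.01 and 7.81 in Epha2-Q722. They were 2.64, 3.11 and 2.64 in Epha2-indel722 and 1.48, 1.92 and 1.73 in Epha2-null. The wild type and Epha2-Q722 libraries overlapped, every Epha2-indel722 library lay below both, and every Epha2-null library lay lower still. Counts of Unc5b were few, with 73 to 120 reads per wild type library and 26 to 37 per Epha2-null library. It passed the 3 CPM limit of the table in every wild type and Epha2-Q722 library and in no Epha2-null library. Unc5b was thus listed mainly through the genotypes where it was high. A gene as low in more of the libraries would not be listed. Unc5b fell 2.31-fold in Epha2-indel722 (log2 fold change -1.21, SE 0.16, adjusted p = 7.2e-06) and 3.77-fold in Epha2-null (-1.91, SE 0.17, adjusted p = 6.1e-08). In Epha2-Q722 its log2 fold change was 0.02 (95% interval -0.26 to 0.30, adjusted p = 0.96). It was 2.34-fold lower in Epha2-indel722 (adjusted p = 4.6e-06) and 3.82-fold lower in Epha2-null (adjusted p = 1.8e-08) than in Epha2-Q722. These 4 calls held in all 18 alternatives that kept the gene. Epha2-indel722 stood above Epha2-null by a log2 difference of 0.71 (adjusted p = 0.021), a call lost with library totals (adjusted p = 0.062), without Epha2-indel722 replicate 2 (0.11) and without Epha2-null replicate 1 (0.10).

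Unc5b is known from blood vessels, so the vascular markers are given beside it. The endothelial genes Tek and Egfl7 summed to 8.91 to 10.5 normalized CPM in wild type. The sums were 9.76 to 12.4 in Epha2-null and 10.3 to 12.2 in Epha2-indel722. Neither gene passed in a comparison with wild type. Other endothelial markers, Pecam1 and Cdh5 among them, were not listed and not analysed here. The 4 pericyte and smooth muscle genes summed to 81.9 to 107 in wild type, 121 to 213 in Epha2-null and 89.3 to 114 in Epha2-indel722. Most of this sum was Acta2, at 65.9, 44.7 and 61.0 in wild type and 79.7, 89.7 and 165 in Epha2-null. Acta2 did not pass in Epha2-null (adjusted p = 0.078, edgeR's quasi-likelihood test), nor did Pdgfrb (0.13), Rgs5 (0.71) or Notch3 (0.92). The part of these cell types in the Unc5b values was not tested.

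Neo1, neogenin, is the receptor shared by RGMs and netrins. Its normalized CPM were 60.8, 65.2 and 54.1 in wild type, 81.7, 79.4 and 65.0 in Epha2-Q722, 75.6, 77.8 and 77.6 in Epha2-indel722, and 57.6, 61.3 and 60.0 in Epha2-null. Epha2-indel722 libraries lay above all wild type and Epha2-null libraries, and 1 Epha2-Q722 library lay within the wild type range. Neo1 rose in Epha2-indel722 (log2 fold change 0.36, SE 0.078, adjusted p = 0.0028) and Epha2-Q722 (0.33, SE 0.078, adjusted p = 0.01), the latter call being lost without wild type replicate 3, without Epha2-Q722 replicate 1 or 2, and in a fit of the pair of groups alone. In Epha2-null it gave -0.01 (adjusted p = 0.96), though 0.26 with library totals, where it passed (adjusted p = 0.02), and it lay below Epha2-Q722 (-0.34, adjusted p = 0.0036) and Epha2-indel722, differences that did not pass with library totals. Rgmb, a membrane-anchored ligand of neogenin and co-receptor for BMPs, was higher in Epha2-Q722. Rgmb gave 10.7, 7.59 and 9.37 normalized CPM in wild type, 13.1, 13.4 and 14.4 in Epha2-Q722, 10.3, 9.22 and 9.82 in Epha2-indel722, and 9.13, 7.87 and 10.2 in Epha2-null. The Epha2-Q722 libraries stood above all others, which overlapped with each other. The rise was 0.57 on the log2 scale (SE 0.11, adjusted p = 0.0021). Rgmb was lower in Epha2-indel722 (-0.48, adjusted p = 0.005) and Epha2-null (-0.59, adjusted p = 0.00057) than in Epha2-Q722.

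**Figure D3:**
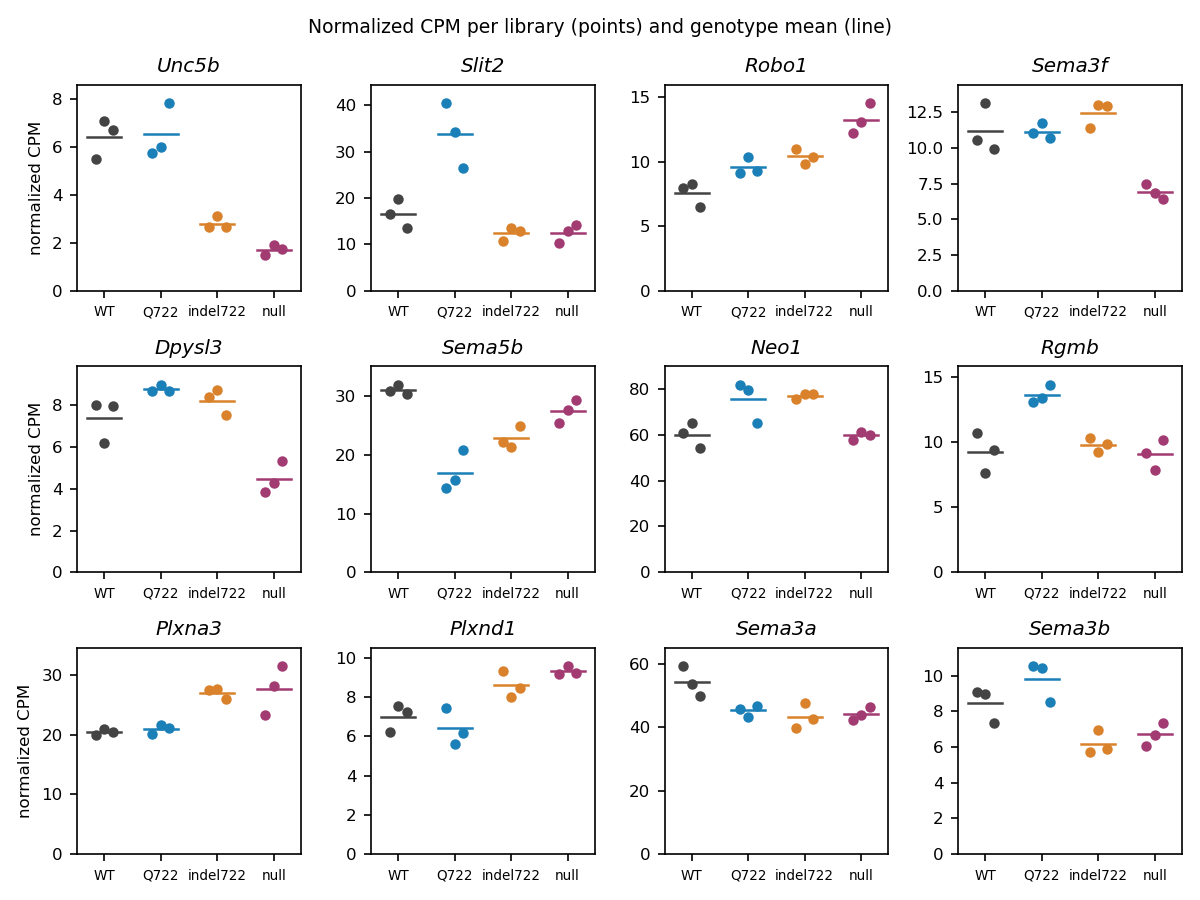
Normalized CPM of 12 guidance genes in each of the 12 libraries (points) with the mean of each genotype (line), on axes that start at 0. Slit2, at 26.4 to 40.4, and Rgmb, at 13.1 to 14.4, stand apart in Epha2-Q722, Unc5b is low in Epha2-indel722 and Epha2-null, and Sema3f and Dpysl3 are low in Epha2-null.

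Semaphorins formed the largest family, with 10 of 20 annotated genes listed. With TMM scaling 2 of the 10 fell in Epha2-Q722, 5 fell and 1 rose in Epha2-indel722, and 3 fell in Epha2-null, beside 3.62%, 6.37% and 6.22% of all genes that fell. With library totals 1 fell and 1 rose in Epha2-Q722, 2 rose and 0 fell in Epha2-indel722, and 1 fell in Epha2-null, the rises being Sema6a in Epha2-Q722 (adjusted p = 0.019) and Sema6a and Sema3f in Epha2-indel722 (adjusted p = 0.0049 and 0.037). Of all genes 14.9%, 27.5% and 55.9% passed with library totals in the same order of genotypes. Sema5b, a transmembrane semaphorin with thrombospondin repeats, had the largest fall of the members in Epha2-Q722. It gave 30.9, 32.0 and 30.4 normalized CPM in wild type, 14.4, 15.7 and 20.9 in Epha2-Q722, 22.2, 21.4 and 24.9 in Epha2-indel722, and 25.5, 27.7 and 29.4 in Epha2-null. Epha2-Q722 libraries lay below all others and wild type libraries above all others. Sema5b fell by a log2 fold change of -0.87 in Epha2-Q722 (SE 0.11, adjusted p = 1.7e-05) under every alternative run, and of -0.45 in Epha2-indel722 (SE 0.10, adjusted p = 0.0056), the latter not with library totals. In Epha2-null it gave -0.18 (adjusted p = 0.3), and Epha2-null was above Epha2-Q722 (0.69, adjusted p = 0.00011).

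Sema3f, a secreted semaphorin that signals through neuropilin and A-type plexins, was lower in Epha2-null. Its normalized CPM were 10.5, 13.1 and 9.94 in wild type, 11.1, 11.7 and 10.7 in Epha2-Q722, 11.4, 13.0 and 12.9 in Epha2-indel722, and 7.49, 6.84 and 6.39 in Epha2-null. The Epha2-null libraries lay below all others, and the remaining genotypes overlapped. Sema3f fell by -0.70 on the log2 scale in Epha2-null (SE 0.12, adjusted p = 0.00017) and gave -0.01 in Epha2-Q722 (adjusted p = 0.98) and 0.15 in Epha2-indel722 (adjusted p = 0.42). Tested directly, it was higher in Epha2-indel722 than in Epha2-null (0.85, adjusted p = 1.1e-05).

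Sema3a, a secreted repellent for many axons, was the only member that passed in all 3 genotypes, as 109 of all 8676 genes did. It gave 59.3, 53.8 and 49.8 normalized CPM in wild type, 45.9, 43.2 and 46.7 in Epha2-Q722, 39.8, 47.8 and 42.5 in Epha2-indel722, and 42.3, 43.9 and 46.4 in Epha2-null. Each mutant library lay below each wild type library, and the mutants overlapped. Log2 fold changes were -0.26 in Epha2-Q722 (SE 0.074, adjusted p = 0.035), -0.32 in Epha2-indel722 (SE 0.074, adjusted p = 0.0046) and -0.29 in Epha2-null (SE 0.074, adjusted p = 0.01), and none passed with library totals (-0.11, -0.16 and -0.03). In Epha2-Q722 the call was also lost with DESeq2 and without replicate 1 or 2 of wild type or of Epha2-Q722 or without Epha2-null replicate 2, and in Epha2-null without replicate 1 of either Epha2-null or wild type.

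Sema3b, another secreted semaphorin, held 9.11, 9.004 and 7.32 normalized CPM in wild type and 10.5, 10.5 and 8.53 in Epha2-Q722. Its libraries held 5.71, 6.95 and 5.91 in Epha2-indel722 and 6.07, 6.68 and 7.37 in Epha2-null. Epha2-indel722 libraries lay below all wild type libraries, while the highest Epha2-null library reached the lowest wild type one. Sema3b fell in Epha2-indel722 (log2 fold change -0.45, SE 0.13, adjusted p = 0.021), though not with library totals or without wild type replicate 1 or 2 or Epha2-indel722 replicate 1 or 3. Against Epha2-Q722 it was lower in Epha2-null (-0.55, adjusted p = 0.0026) and in Epha2-indel722 (-0.66, adjusted p = 0.00063).

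Sema4c and Sema4d are transmembrane ligands of B-type plexins. Sema4d gave 17.7, 21.5 and 20.2 normalized CPM in wild type, 16.9, 18.4 and 18.6 in Epha2-Q722, 16.8, 15.2 and 17.4 in Epha2-indel722, and 15.9, 14.3 and 17.2 in Epha2-null. Epha2-indel722 and Epha2-null libraries lay below wild type. Sema4d passed at the edge in Epha2-indel722 (log2 fold change -0.27, adjusted p = 0.0495, lost in 11 of 19 alternatives, among them without any 1 Epha2-indel722 replicate, wild type replicate 2 or 3, Epha2-Q722 replicate 2, or Epha2-null replicate 1 or 2) and in Epha2-null (-0.33, adjusted p = 0.019, lost in 4 of 19, among them without wild type replicate 2 or 3 and without Epha2-null replicate 2). Sema4c gave 6.47, 6.71 and 6.36 normalized CPM in wild type, 5.88, 5.26 and 6.23 in Epha2-Q722, 4.62, 5.08 and 5.28 in Epha2-indel722, and 6.35, 5.34 and 5.64 in Epha2-null. Every mutant library lay below wild type, and Epha2-indel722 passed (-0.39, adjusted p = 0.035, lost in 7 of 18 alternatives, among them without any 1 wild type replicate and without Epha2-indel722 replicate 1 or 2). Sema4c shares 334 exonic bases with an antisense gene, as do Plxna1 (970 bases), Plxnb1 (257) and Plxna4 (110) with others. Whether the counting used strand is not given in the sources used here.

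Sema6a, a transmembrane ligand of A-type plexins, was the semaphorin that rose in Epha2-indel722. It gave 20.7, 22.7 and 18.8 normalized CPM in wild type, 26.1, 24.9 and 24.8 in Epha2-Q722, 22.9, 29.3 and 25.4 in Epha2-indel722, and 17.2, 19.1 and 22.6 in Epha2-null. Both edited genotypes lay above wild type, by 0.32 in Epha2-indel722 (adjusted p = 0.038, lost in 8 of 19 alternatives, among them without wild type replicate 1 or 3, Epha2-Q722 replicate 1, Epha2-indel722 replicate 2 or 3, or Epha2-null replicate 2) and 0.28 in Epha2-Q722 (adjusted p = 0.11) on the log2 scale. Sema4b, Sema5a and Sema6d passed in no comparison with wild type. Sema5a gave 203 ± 27.4 normalized CPM in wild type lenses, against 226 ± 16.1 in Epha2-Q722, 180 ± 21.3 in Epha2-null and 187 ± 4.25 in Epha2-indel722.

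Of the 6 plexins listed, 1 rose in Epha2-indel722, 2 rose in Epha2-null and 0 passed in Epha2-Q722, where 13.1%, 11.2% and 6.37% of all genes passed. In Epha2-Q722 0 of the 6 had an unadjusted p under 0.05 in edgeR's quasi-likelihood test, and 0 passed with edgeR's exact test or DESeq2. With library totals 4 rose in Epha2-indel722, 4 in Epha2-null and 1 in Epha2-Q722, where 27.5%, 55.9% and 14.9% of all genes passed. Of all genes passing with library totals, 91.2%, 96.8% and 89.7% were higher in the same order. Plxna3, a plexin of the class-3 semaphorin receptors, gave 20.03, 20.9 and 20.5 normalized CPM in wild type, 20.2, 21.7 and 21.2 in Epha2-Q722, 27.5, 27.7 and 26.01 in Epha2-indel722, and 23.3, 28.2 and 31.5 in Epha2-null. Epha2-indel722 and Epha2-null libraries stood above all wild type and Epha2-Q722 libraries. Plxna3 rose by 0.40 in Epha2-indel722 (SE 0.087, adjusted p = 0.0027) and 0.43 in Epha2-null (SE 0.087, adjusted p = 0.0016) on the log2 scale, in each alternative run. Against Epha2-Q722 it was also higher in Epha2-indel722 (0.36, adjusted p = 0.0057) and Epha2-null (0.40, adjusted p = 0.002). Plxnd1, a receptor known for vascular patterning, gave 6.25, 7.53 and 7.27 normalized CPM in wild type, 7.43, 5.61 and 6.18 in Epha2-Q722, 9.34, 8.04 and 8.50 in Epha2-indel722, and 9.19, 9.58 and 9.22 in Epha2-null. Its Epha2-null and Epha2-indel722 libraries stood above wild type. Plxnd1 passed in Epha2-null (0.40, adjusted p = 0.024). That call was lost with DESeq2 and without wild type replicate 1 or 3 or Epha2-null replicate 1 or 2. In Epha2-indel722 Plxnd1 gave 0.29 (adjusted p = 0.11, and 0.0092 with library totals). Plxna1, Plxna4, Plxnb1 and Plxnb2 passed in no comparison with wild type with TMM, but with library totals Plxnb2 passed in each mutant (adjusted p = 0.042 for Epha2-Q722, 0.013 for Epha2-indel722 and 0.00053 for Epha2-null) and Plxnb1, which shares exonic bases with an antisense gene, in Epha2-indel722 and Epha2-null (adjusted p = 0.0087 and 0.0012). Levels of Plxnb2 stood at 120 ± 11.3 normalized CPM in wild type lenses, 134 ± 4.51 in Epha2-null, 131 ± 2.82 in Epha2-indel722 and 129 ± 4.28 in Epha2-Q722.

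Of the 6 cytosolic mediators, 3 fell in Epha2-null, where 11.2% of all genes passed. In the edited genotypes 0 of the 6 passed, beside 6.37% of all genes in Epha2-Q722 and 13.1% in Epha2-indel722. With library totals Dpysl3 was the 1 of the 3 that still passed in Epha2-null, where 55.9% of all genes did. Dpysl4 and Srgap2 were then higher in Epha2-null (adjusted p = 0.0028 and 0.00093) and in Epha2-indel722 (adjusted p = 0.0461 and 0.011), where 27.5% of all genes passed. Dpysl3 was then higher in Epha2-Q722 (adjusted p = 0.046), where 14.9% passed. An unadjusted p under 0.05 in edgeR's quasi-likelihood test was found for 2 in Epha2-Q722 and 1 in Epha2-indel722, and 0 passed in either with edgeR's exact test or DESeq2. Dpysl proteins bind tubulin and actin and relay semaphorin signals to the cytoskeleton. Dpysl3 gave 7.98, 6.18 and 7.95 normalized CPM in wild type, 8.66, 8.96 and 8.68 in Epha2-Q722, 8.35, 8.73 and 7.52 in Epha2-indel722, and 3.86, 4.25 and 5.30 in Epha2-null. The Epha2-null libraries lay below all others. Its log2 fold change in Epha2-null was -0.72 (SE 0.14, adjusted p = 0.00081), and Dpysl3 was higher in Epha2-indel722 (0.88, adjusted p = 4.8e-05) than in Epha2-null and lower in Epha2-null than in Epha2-Q722 (-0.97, adjusted p = 9.3e-06). Ablim1 gave 113, 110 and 112 normalized CPM in wild type, 115, 107 and 119 in Epha2-Q722, 107, 109 and 103 in Epha2-indel722, and 83.6, 88.9 and 102 in Epha2-null, where it was lower than in wild type (-0.28, SE 0.067, adjusted p = 0.0069, not passing without Epha2-null replicate 1). Dpysl2 gave 45.0, 35.2 and 38.8 normalized CPM in wild type, 33.9, 33.3 and 35.8 in Epha2-Q722, 37.4, 38.8 and 32.1 in Epha2-indel722, and 30.5, 30.7 and 35.5 in Epha2-null. Its groups overlapped, and the difference in Epha2-null (-0.30, adjusted p = 0.033) was lost without wild type replicate 1 or 3 or Epha2-null replicate 1 or 2. Dpysl4, Dpysl5 and Srgap2, a GTPase-activating protein of the Slit and Robo pathway, passed in no comparison with wild type with TMM.

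Mutant genotypes were also compared with each other. Between Epha2-indel722 and Epha2-Q722 7 members passed, beside 12.4% of all genes, and between Epha2-null and Epha2-Q722 14 passed, beside 17%. Slit2 and Unc5b were the members beyond 2-fold in both, where 0.922% and 1.21% of all genes were. Between Epha2-indel722 and Epha2-null 7 members passed, beside 9.85% of all genes, and none was beyond 2-fold, beside 0.98% of all genes. Slit2 did not pass between Epha2-indel722 and Epha2-null (log2 difference -0.005, 95% interval -0.46 to 0.45, adjusted p = 1).

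**Figure D4:**
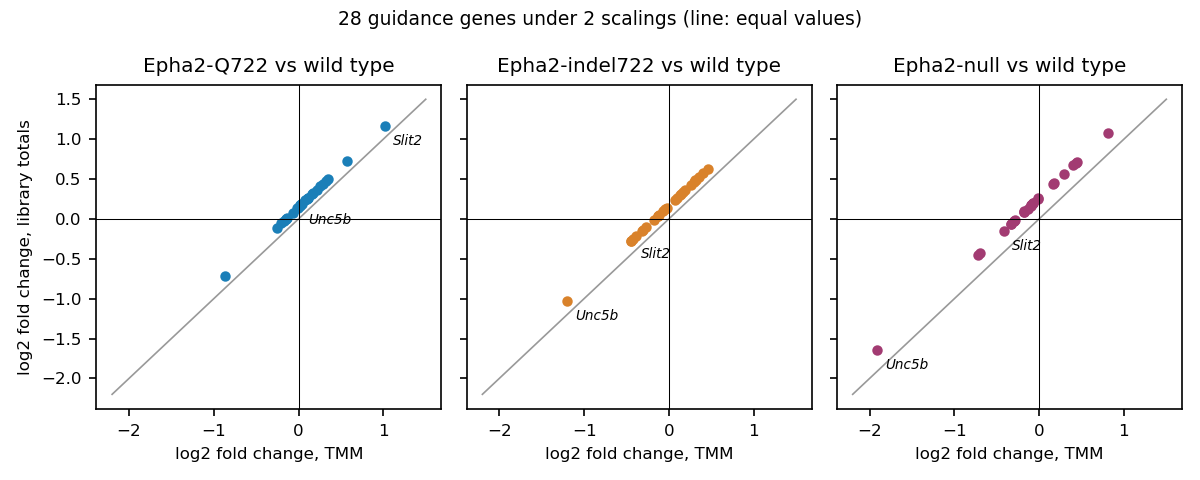
Log2 fold change of the 28 members against wild type with TMM factors (horizontal axis) and with library totals (vertical axis), for each mutant genotype, with a line of equal values. Points lie above the line in each panel, as the median of all genes moved by 0.15, 0.17 and 0.28, and Unc5b stays low in Epha2-indel722 and Epha2-null under both scalings.

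Other genes of guidance pathways were taken from lists of non-members. Of 38 further cytosolic effectors 32 were listed, of which 0 passed in Epha2-Q722, 3 in Epha2-null and 3 in Epha2-indel722, none beyond 2-fold, beside 6.37%, 11.2% and 13.1% of all genes. With library totals 5, 19 and 8 passed, beside 14.9%, 55.9% and 27.5%. In Epha2-Q722 2 of the 32 had an unadjusted p under 0.05, and 0 passed with edgeR's exact test or DESeq2. Of 29 further cues, receptors and adhesion molecules 15 were listed. Of these 2 passed in Epha2-Q722, 5 in Epha2-null and 7 in Epha2-indel722, beside the same 6.37%, 11.2% and 13.1% of all genes. With library totals 3, 9 and 4 passed, beside 14.9%, 55.9% and 27.5%. The 1 gene beyond 2-fold was Draxin in Epha2-indel722, where 1.01% of all genes were. Draxin encodes a secreted guidance protein that binds netrin and DCC. Its normalized CPM were 4.22, 4.88 and 4.14 in wild type and 49.5, 47.9 and 45.6 in Epha2-indel722. Values were 5.82, 4.96 and 4.60 in Epha2-Q722 and 8.45, 7.31 and 6.97 in Epha2-null. The Epha2-indel722 libraries stood far above all others, and Epha2-null libraries stood above wild type. It was 10.8-fold higher in Epha2-indel722 (log2 fold change 3.43, SE 0.10, adjusted p = 2.6e-17) and higher in Epha2-null (0.77, SE 0.12, adjusted p = 9.3e-05) than in wild type. Draxin lies on chromosome 4 (bases 148098437 to 148130698 of mm10), as Epha2 does. Effects of the allele and of its linked chromosome cannot be told apart in these libraries.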

How the data were processed

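RNA-seq libraries of P7 lenses were made from 4 genotypes, with 3 libraries each. Per the submitters' processing notes, the authors used STAR 2.5.3a for alignment to mm10, SAMtools 1.4.1 for filtering and HTSeq 0.11.0 for counting, and the annotation release and strand setting are not given in the sources used here. The deposited table holds whole-number counts per gene and, beside them, CPM that the authors scaled to the whole library and not by TMM. The authors' log2 fold changes, average log2 CPM and p-values also stand in the deposited table and were not used. Library totals were recovered from the deposited counts and CPM and ran from 14543069 to 19874646 in wild type, from 15674528 to 20340688 in Epha2-Q722, from 15483875 to 17719581 in Epha2-null and from 18434188 to 20072832 in Epha2-indel722. No replicates were duplicates.

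Counts were tested with edgeR 4.0.16 in R 4.3.3 (glmQLFit with robust estimation and glmQLFTest, TMM factors, two-sided), with a mean per genotype and the 12 libraries fitted together with 8 residual degrees of freedom, and p-values were adjusted by Benjamini-Hochberg over 8676 genes. The procedure was run on counts simulated from the mean levels and fitted dispersions of these data, which cannot test the choice of scaling. A gene passed at an adjusted p of at most 0.05, and 2-fold calls needed a fold of at least 2 as well. The prior count of log2 fold changes was 0.125. The study's exact test, DESeq2 1.42.0, a fit of the pair of groups alone, library totals, a mean of at least 10 CPM, no filter, a replicate block and leaving out each library were run as alternatives. Members, lists and tests were chosen with earlier results of these data known. Named with the value of each library were Slit2, Unc5b and every member passing in at least 1 comparison with wild type, and non-members only when beyond 2-fold. Positions and transcript lengths are from GENCODE vM21 and upstream sequences from RefSeq.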

Additional observations from a re-analysis of the deposited data

How the results depend on the processing

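Unc5b in Epha2-indel722 and Epha2-null, Slit2, Rgmb and Sema5b in Epha2-Q722, Neo1 in Epha2-indel722, Plxna3 in Epha2-null and in Epha2-indel722, and Robo1, Sema3f and Dpysl3 in Epha2-null passed against wild type in every alternative that kept the gene. With library totals 8 members passed in Epha2-Q722 (5 with TMM) and 4 between Epha2-indel722 and Epha2-null (7 with TMM). Beyond 2-fold in Epha2-null were then 2, Unc5b and Robo1 (1 with TMM, Unc5b). Restricting to genes with a mean of at least 10 CPM left 20 members, without Unc5b, and 6 passed in Epha2-indel722 against wild type, 4 against Epha2-Q722 and 4 against Epha2-null, with 0 beyond 2-fold in Epha2-indel722 and 0 in Epha2-null. With library totals the sign turned in 23 of the members' values against wild type and in 11 between mutants. Among the members' calls and the values of Slit2 and Unc5b, the direction turned in the other alternatives for Unc5b in Epha2-Q722 (-0.14 to 0.094 when leaving out 1 library, being -0.07 without wild type replicate 1 and -0.14 without Epha2-Q722 replicate 3) and Slit2 between Epha2-indel722 and Epha2-null (-0.12 to 0.10 when leaving out 1 library, 9.5e-05 with DESeq2, 0.086 without Epha2-indel722 replicate 1, and 0.019 and 0.097 without Epha2-null replicates 2 and 3). Among single members, 18 calls were lost with library totals, 7 with DESeq2, 3 in the fit of the pair of groups alone, 2 above 10 CPM, 2 with the replicate block (Sema3a in Epha2-Q722, adjusted p = 0.052, and Sema4d in Epha2-indel722, adjusted p = 0.053) and 1 with the exact test, which also added 2. The fit of the pair of groups added 1, and library totals added 15 against wild type and 4 between mutants. The cause of these shifts was not tested.

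Leaving out 1 library at a time, 3 to 5 members passed in Epha2-Q722, 7 to 11 in Epha2-null and 6 to 10 in Epha2-indel722 against wild type, 5 to 9 between Epha2-indel722 and Epha2-Q722, 12 to 15 between Epha2-null and Epha2-Q722, 3 to 8 between Epha2-indel722 and Epha2-null, and 14 to 18 in the test of all genotypes, with 0 to 2 beyond 2-fold in Epha2-Q722 and 1 in each of the others. With the replicate number as a block 4, 9 and 10 members passed against wild type, and 7, 14 and 7 between mutants. Same-numbered libraries did not deviate together as a rule. Correlations were -0.149 to 0.219, with 1 of 18 over 0.1, and 4 of 12 libraries correlated best with their own number. No pairing by number was thus seen, though 3 libraries per genotype could miss a weak one. Pools of lenses at 1 age, few counts for genes such as Unc5b, and a table limited to genes above 3 CPM bound what these data can show.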
